A study of Homo sapiens with 3 samples.

Results

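The 9 genes described here encode proteins by which a hepatocyte is known. They are ALB, AFP, TTR, TF, APOA1, APOB, SERPINA1, CYP2E1 and CYP3A4, and they were chosen by name. Their members are the CpGs within 5 kb of 1 stated GRCh37 start site per gene, with the reads of both strands summed and at least 5 reads in each library. Of 439 such CpGs seen in any library, 379 met this minimum, out of 2744301 CpGs compared and 3225751 seen in the whole series.

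DNA methylation had been measured by capture bisulfite sequencing in Hep3B, a human hepatocellular carcinoma line, in 3 libraries: 1 was parental Hep3B, and the other 2 were different SOX4 knockout lines of it, numbered line 1 and line 2 as in the labels. Per the study's methods the lines had been made earlier with CRISPR/Cas9 and were grown with puromycin, an additive stated for the knockout cells only, so that knockout, drug and the history of each line cannot be told apart. SOX4 binds DNA through an HMG box and regulates transcription, and the edit at its gene was not examined here. After bisulfite an unmethylated cytosine is sequenced as T and a methylated one still as C, and the methylation level of a CpG is the percentage of its reads with C.

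A hepatocyte secretes most of the proteins of blood plasma and carries the cytochrome P450 enzymes that oxidize drugs and fatty acids. The genes are switched on in liver by transcription factors such as HNF1, HNF4 and C/EBP, which bind short promoters next to the start site. Methylation of CpGs at a start site is usually low where a gene is transcribed and can be high where it is silent, but many liver genes hold few CpGs there. No expression data for these genes were analysed here, so methylation levels were read as levels only.

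The libraries held 104702738 CpG reads in parental cells, 96987706 in line 1 and 133170621 in line 2. Member CpGs were shallower than the rest, with medians of 19, 17 and 24 reads against 26, 24 and 32 over all compared CpGs in the same order. At this depth a contrast of 0% against 100% could have passed the test at 377 of 379 CpGs for line 1 and at 374 for line 2. Reads per gene, relative to the library total, ran from 0.601 times parental (CYP3A4, line 2) to 1.28 times (APOB, line 2), and CYP3A4 in line 2 was the 1 value below the 5th percentile of all 10 kb tiles (0.688 in that line). Copy number was not tested.

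Promoter sequences matched 6 of the 9 genes in RefSeq (GRCh38.p14); APOA1, APOB and TTR had no entry. The 250 bases before the RefSeq start are printed for those that show how the start regions differ in CpG content, 5′ to 3′ on the gene's strand, in lower case with each CpG in capitals. The 4 promoters from ALB, TF and SERPINA1 and the 1 from CYP2E1 were placed on the deposited CpGs by the spacing of their CpGs alone, without converting coordinates. The AFP sequence holds 1 CpG, too few to place it, and another TF entry lay outside the CpGs compared and is not printed.
ALB, chr4:73404037-73404286, plus strand: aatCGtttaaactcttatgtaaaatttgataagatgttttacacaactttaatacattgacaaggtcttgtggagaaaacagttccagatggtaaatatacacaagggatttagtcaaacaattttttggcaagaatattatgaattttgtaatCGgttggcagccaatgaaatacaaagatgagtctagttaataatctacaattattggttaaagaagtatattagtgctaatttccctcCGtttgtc
AFP, chr4:73435971-73436220, plus strand: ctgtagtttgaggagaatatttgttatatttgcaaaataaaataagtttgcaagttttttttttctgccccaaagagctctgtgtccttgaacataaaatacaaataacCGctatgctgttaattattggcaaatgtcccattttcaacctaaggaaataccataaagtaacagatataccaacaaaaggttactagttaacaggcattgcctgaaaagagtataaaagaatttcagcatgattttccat
TF, chr3:133746143-133746392, plus strand: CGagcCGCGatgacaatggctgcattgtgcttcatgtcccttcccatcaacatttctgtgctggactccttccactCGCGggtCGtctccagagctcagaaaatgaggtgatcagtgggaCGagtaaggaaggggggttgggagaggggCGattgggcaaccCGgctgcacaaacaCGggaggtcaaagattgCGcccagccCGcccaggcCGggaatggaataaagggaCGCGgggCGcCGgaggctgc
SERPINA1, upstream start, chr14:94390636-94390885, minus strand: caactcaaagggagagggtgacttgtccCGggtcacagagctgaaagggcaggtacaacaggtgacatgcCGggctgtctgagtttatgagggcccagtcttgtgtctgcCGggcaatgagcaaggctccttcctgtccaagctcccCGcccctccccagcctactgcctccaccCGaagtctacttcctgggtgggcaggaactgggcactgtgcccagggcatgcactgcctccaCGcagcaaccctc
SERPINA1, downstream start, chr14:94388603-94388852, minus strand: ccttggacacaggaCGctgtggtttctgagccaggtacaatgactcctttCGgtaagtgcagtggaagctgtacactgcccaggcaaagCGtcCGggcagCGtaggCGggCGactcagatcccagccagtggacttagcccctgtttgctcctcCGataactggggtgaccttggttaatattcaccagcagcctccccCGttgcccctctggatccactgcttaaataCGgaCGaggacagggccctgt
CYP2E1, chr10:133527113-133527362, plus strand: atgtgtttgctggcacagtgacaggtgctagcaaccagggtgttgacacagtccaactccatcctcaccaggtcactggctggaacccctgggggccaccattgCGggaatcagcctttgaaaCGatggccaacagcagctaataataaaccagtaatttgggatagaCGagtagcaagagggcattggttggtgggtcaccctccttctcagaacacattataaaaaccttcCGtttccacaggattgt

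These windows held 3 CpGs in ALB, 1 in AFP, 17 in TF, 6 and 11 in the upstream and downstream SERPINA1 promoters and 4 in CYP2E1, while that of CYP3A4 held 0. The median over 35116 RefSeq promoters was 11 in the same 250 bases. The RefSeq start of CYP2E1 fell on the stated start site, that of ALB 32 bases after it and that of TF 260 bases after it. For SERPINA1 the RefSeq starts fell 57 and 2090 bases after the stated site. The TATA-box letters TATAAA, searched on both strands, began at -29 from the RefSeq start in AFP and CYP3A4 and at -30 in CYP2E1, and 10.7% of all promoters hold them. GTTAAT, part of the known HNF1 motif, began at -61 in ALB, -132 in AFP and -76 in the downstream SERPINA1 promoter, and 6.23% of all promoters hold it. CCAAT, present in 32% of promoters, was found in ALB, AFP, TF and CYP2E1. Of the strings that the SOX4 consensus given by the study allows, only AACAAAG (4.5% of promoters) and AACAATG (2.87%) were searched. Neither was in any of the 8 RefSeq windows of the 6 genes. The consensus also allows strings that were not searched, and printed windows hold some of these. They include TACAAAG in ALB, TACAATG in the downstream SERPINA1 promoter and, on the opposite strand, TTCAAAG in CYP2E1. How many promoters hold these strings was not counted, so neither presence nor absence says anything about SOX4 at these genes.

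**Figure D1:**
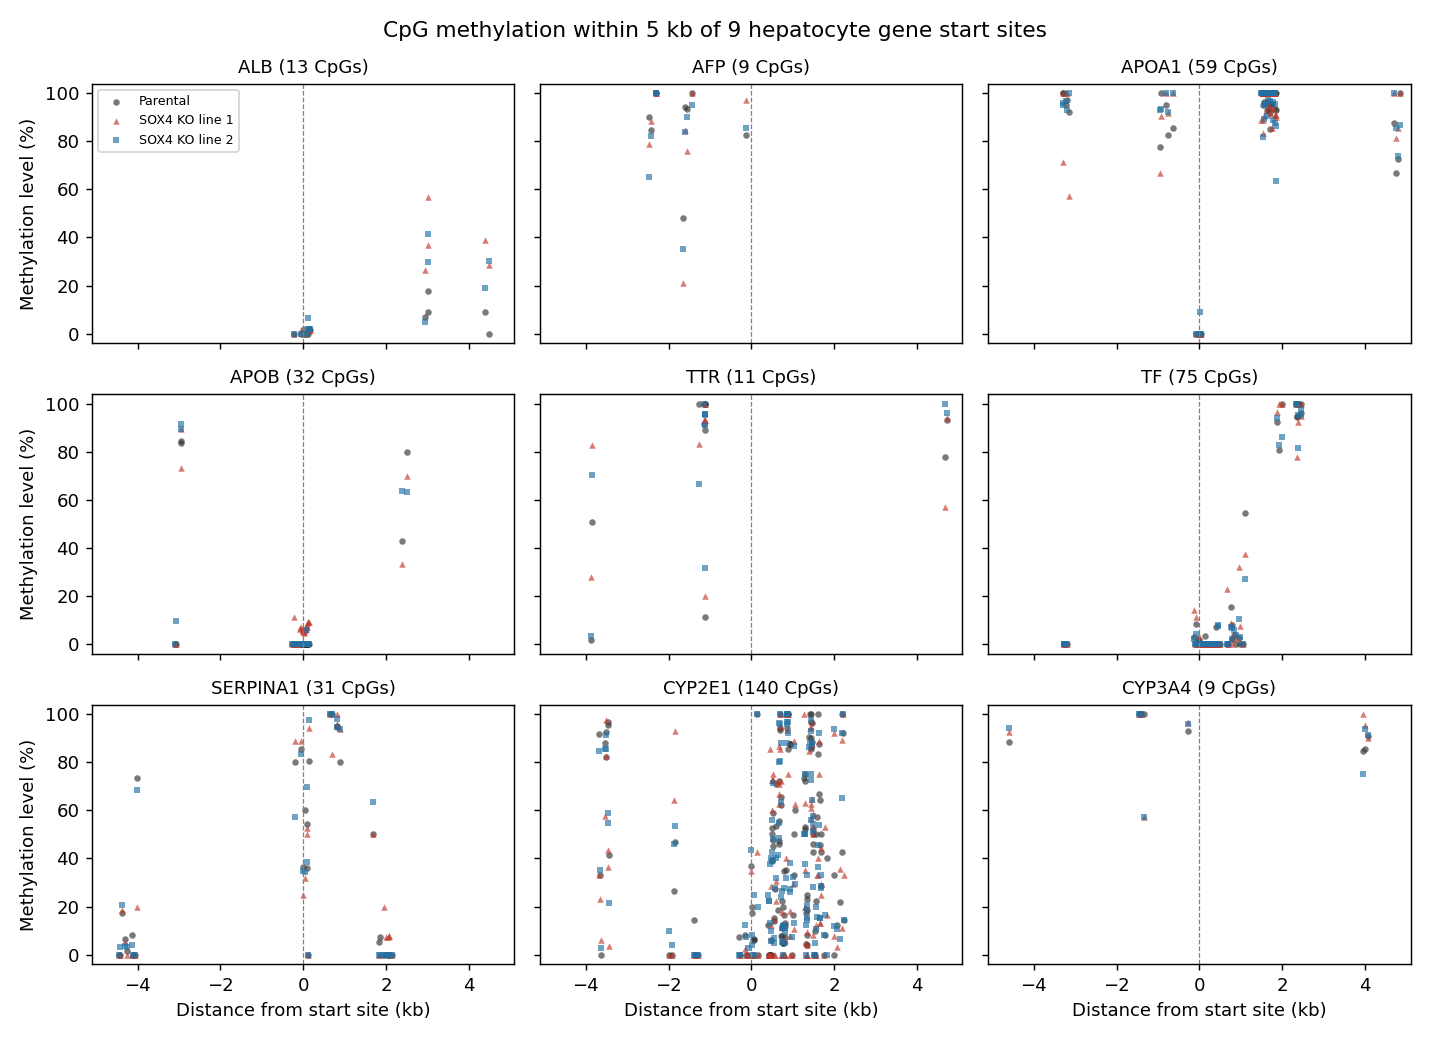
Methylation level (%) of each compared CpG against its distance from the stated start site (kb, negative upstream on the gene's strand) for the 9 genes in the parental library, SOX4 KO line 1 and line 2. CpGs next to the start sites of ALB, APOA1, APOB and TF lie near 0 in all 3 libraries, those of AFP and CYP3A4 lie above 80%, and CYP2E1 spans the whole scale.

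The 9 genes fell into unlike methylation states that were shared by the 3 libraries. Of the 379 CpGs, 154 were below 20% in every library, 103 were above 80% in every library, and 121 lay between these bounds in at least 1 library. Of the last group, 83 were near CYP2E1. The remaining CpG, also near CYP2E1, crossed from below 20% to above 80%. Within 5 kb the lowest means were those of ALB (3.73% to 15.0% over the 3 libraries), APOB (9.10% to 12.9%) and TF (13.6% to 14.8%). SERPINA1 (33.8% to 34.6%) and CYP2E1 (36.4% to 42.8%) were intermediate. TTR (74.1% to 77.0%), AFP (81.9% to 88.2%), APOA1 (88.1% to 89.4%) and CYP3A4 (89.7% to 93.7%) were high. Neighbors in this order whose ranges overlapped were ALB with APOB and AFP with APOA1, and the range of ALB also took in that of TF.

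**Figure D2:**
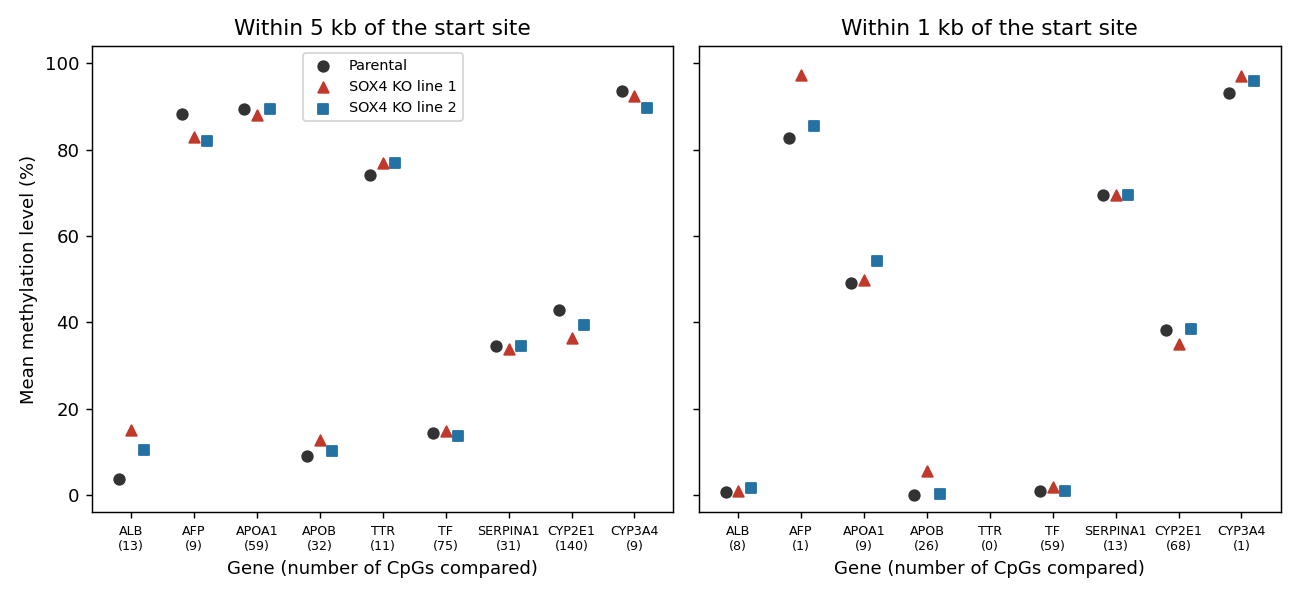
Mean methylation level (%) of each gene in each of the 3 libraries, over CpGs within 5 kb (left) and within 1 kb (right) of the stated start site, with the number of CpGs in brackets; TTR has no compared CpG within 1 kb. Within 5 kb the points of ALB stand at 3.73%, 15.0% and 10.5%, the widest spread of the 9 genes.

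Over all 379 CpGs the mean level was 42.7% in parental cells, 40.8% in line 1 and 41.5% in line 2. Averaged over the lines it was 41.2% ± 0.491 (SD, n = 2), and the difference from parental cells was -1.56 points. Over all 2744301 CpGs the means were 44.1%, 40.0% and 41.9%, so line 1 stood 4.08 points and line 2 2.14 points below parental. The lower knockout mean near the 9 genes rested on CYP2E1, which holds 140 of the 379 CpGs, since without it the means were 42.7%, 43.4% and 42.7%. With 1 parental library a permutation test of these means cannot go below p = 0.333, and no test was made.

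Single CpGs were compared by 2-sided Fisher's exact test on reads, adjusted over all 2744301 CpGs, and called at an adjusted p under 0.05 with a difference of at least 25 points. Such tests compare libraries, not conditions. In line 1 against parental, 9 of the 379 CpGs were called higher, where 0.484% of all CpGs were, and 7 were called lower, where 3.65% of all CpGs were. In line 2 against parental, 1 was called higher (0.0628% of all CpGs) and 2 lower (0.54%). Both lines were called higher at 0 member CpGs (0.0435% of all CpGs) and lower at 2 (0.452%). Line 1 against line 2 gave 0 higher calls (0.141% of all CpGs) and 1 lower call (0.831%). At an unadjusted p under 0.05 in the same Fisher's test, 9 members (2.37%) were higher, against 1.71% of all CpGs. In the other direction 11 (2.90%) were lower, against 5.55% of all CpGs. As shares of the members, 2.37% were higher and 1.85% lower in line 1. By gene, the calls of line 1 were 11 near CYP2E1, 2 near ALB, 2 near TTR and 1 near TF, and every call of line 2 and of line 1 against line 2 was near CYP2E1. CpGs a few bases apart lie on the same fragments, so neighboring calls are not independent.

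At the level of gene means, with each CpG weighted alike, a difference of 10 points was used as the mark. In line 1, ALB alone was higher by that much (11.3 points), where 1.73% of 96916 tiles of 10 kb were, and 0 genes were lower, where 23.7% of tiles were. In line 2 no gene moved that far, against 1.11% of tiles higher and 10.5% lower. Line 1 against line 2 gave no gene either, against 1.35% of tiles higher and 10.6% lower. The genes past the mark depended on the weighting. With reads pooled, TTR stood at 51.7% in parental cells, 73.1% in line 1 and 67.9% in line 2, past the mark in both lines. With CpGs weighted alike, TTR was higher by 2.71 points in line 1 and 2.85 points in line 2. Of the TTR reads, the 2 CpGs at -3881 and -3855 held 115 of 203 in parental cells. They held 71 of 193 in line 1 and 114 of 296 in line 2. The 7 TTR CpGs from -1265 to -1116 pooled to 84.4%, 83.7% and 84.7% in the same order. Pooled CYP2E1 levels were 49.9%, 39.7% and 45.1% in the same order, past the mark downward in line 1 only. How many tiles pass the mark with reads pooled was not counted.

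Serum albumin, encoded by ALB, is the main protein of plasma and the classic product of the differentiated hepatocyte. Its start site was close to unmethylated in all 3 libraries. Over the 8 CpGs from -215 to 151 the mean was 0.711% in parental cells, 0.938% in line 1 and 1.54% in line 2, with single CpGs between 0% and 6.45% and 10 to 102 reads each. All 3 CpGs of the printed ALB promoter were compared. The one at -96 from the RefSeq start had 0 methylated of 75 parental reads, 1 of 67 in line 1 and 0 of 79 in line 2. The nearest CpG to the stated start, at 24, had 1 of 57, 0 of 50 and 0 of 72.

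The ALB signal that differed lay downstream, in 5 CpGs from 2936 to 4480 (chr4:74272908-74274452, GRCh37; an annotation of this build was not used here). Their mean was 8.57% in parental cells, 37.5% in line 1 and 24.9% in line 2, so that the lines averaged 31.2% ± 8.91 (SD, n = 2), a difference of 22.6 points from parental. At 3011 bases (chr4:74272983) the level was 17.9% in parental cells (12 of 67 reads; 95% exact interval 9.61% to 29.2%), 57.0% in line 1 (49 of 86; 45.8% to 67.6%) and 41.3% in line 2 (33 of 80; 30.4% to 52.8%). Line 1 was higher by 39.1 points (Fisher's exact test, adjusted p = 8.03e-05), and line 2 was higher by 23.3 points, which did not pass (adjusted p = 0.148). Its neighbor at 3006 had 6 of 67, 32 of 87 and 24 of 81 methylated reads, and line 1 again passed the exact test (adjusted p = 0.00251) while line 2 did not (adjusted p = 0.131). At 4 of the 5 CpGs both lines were above parental. The exception was 2936, with 4 of 58, 15 of 57 and 3 of 65 reads, where line 2 stood beside parental. The start site of ALB was thus low in the libraries in which these downstream CpGs differed.

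**Figure D3:**
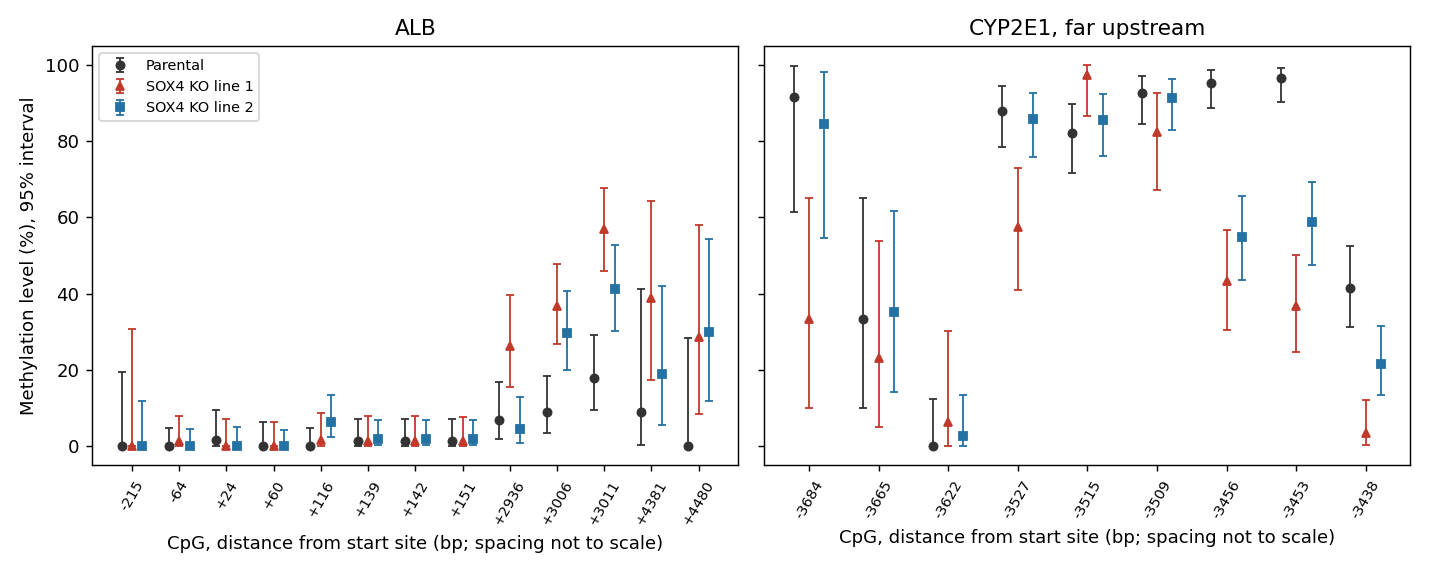
Methylation level (%) with exact 95% intervals of counting error at each compared CpG of ALB (left) and at the 9 CpGs of CYP2E1 farthest upstream (right) in the 3 libraries, ordered by distance from the start site (bp, spacing not to scale). ALB runs along 0 around the start and separates downstream, and the 3 right-most CYP2E1 CpGs are lower in both knockout lines than in the parental library.

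AFP encodes alpha-fetoprotein, the fetal counterpart of albumin and a serum marker of liver cancer. It had 9 compared CpGs, all upstream, and its mean was 88.2% in parental cells, 82.9% in line 1 and 81.9% in line 2. The 1 CpG within 1 kb, at -136, was methylated in 24 of 29 parental reads, 35 of 36 reads of line 1 and 35 of 41 of line 2. The RefSeq promoter printed above holds its only CpG at -141 from the RefSeq start. AFP was thus highly methylated at the 1 CpG measured near its start, in all 3 libraries. The largest separation was at -1641, with 14 of 29, 4 of 19 and 19 of 54 methylated reads, and it passed in neither line (Fisher's exact test, adjusted p = 0.564 for line 1 and 1 for line 2). ALB and AFP are neighbors on chromosome 4 and members of 1 gene family, and their nearest CpGs stood at opposite levels in the 3 libraries.

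TTR encodes transthyretin, a carrier of thyroid hormone and of retinol-binding protein. No compared CpG lay within 1 kb of its start site, so its promoter was not compared. The nearest run, 7 CpGs from -1265 to -1116, had means of 84.5%, 83.3% and 82.4% in parental cells, line 1 and line 2. One CpG inside this run differed from its neighbors in every library. At -1120 it had 1 of 9, 3 of 15 and 7 of 22 methylated reads, whereas the next CpGs on either side, at -1124 and -1118, were between 88.9% and 100%.

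Farther up, 2 TTR CpGs were called higher in line 1. At -3881 (chr18:29167849) 1 of 58 parental reads, 10 of 36 reads of line 1 and 2 of 57 reads of line 2 were methylated (Fisher's exact test, adjusted p = 0.00742 for line 1 and 1 for line 2). At -3855 the levels were 50.9%, 82.9% and 70.2% (exact test, adjusted p = 0.0436 for line 1 and 0.778 for line 2). Line 2 lay between the other libraries at both, close to parental at the first.

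TF encodes transferrin, which carries iron in plasma. Its start region was a CpG-dense stretch almost without methylation. Of 59 compared CpGs within 1 kb, 57 were below 20% in every library and 43 had no methylated read in any. The means were 0.967%, 1.85% and 1.04% over CpGs with 5 to 76 reads. All 17 CpGs of the printed TF promoter were covered, by 23 to 76 reads, and the only methylated reads among them were 2 of 59 at a single CpG in parental cells. With 3 methylated reads taken as the limit of a count of 0, 76 reads allow up to 3.95% and 5 reads up to 60%. Farther upstream, 4 CpGs from -3277 to -3206 had no methylated read in any library.

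Downstream of TF the level rose sharply in all libraries. The 10 CpGs from 1868 to 2458 had means of 95.8%, 96.1% and 93.3%. The 1 TF CpG that was called lay near the downstream end of the low stretch, at 958 (chr3:133465935). It had 1 of 41, 9 of 28 and 4 of 38 methylated reads (Fisher's exact test, adjusted p = 0.0222 for line 1 and 1 for line 2). The next CpG but 1, at 1053, had no methylated read in any library, and the level was mixed at 1104, with 6 of 11, 3 of 8 and 3 of 11 reads.

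APOA1 encodes the main protein of high-density lipoprotein, which carries cholesterol back to the liver. It combined a small unmethylated patch at the start site with high methylation on both sides. The 4 CpGs from -75 to 39 had 0 methylated of 8 to 10 parental reads each, 0 of 6 to 8 reads in line 1, and in line 2 1 methylated read, at 22, of 11. By the limit used for TF, a count of 0 allows up to 37.5% at 8 reads and up to 50% at 6 reads. These were the fewest reads in parental cells and in line 1, so the depth here sets only a loose upper limit.

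From -957 to -645, 5 APOA1 CpGs averaged 88.3%, 89.8% and 95.7%. The 41 CpGs from 1488 to 1856 averaged 98.0%, 96.4% and 96.6%. At 4699 to 4846 the mean was 81.7% in parental cells, 91.8% in line 1 and 86.5% in line 2. No APOA1 CpG was called in any pair, and the smallest adjusted p was 0.133 (Fisher's exact test), at -3295 in line 1, with 28 of 28, 10 of 14 and 20 of 21 methylated reads.

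APOB encodes the structural protein of very-low-density and low-density lipoprotein. Its start region was also without methylation, with 26 CpGs from -267 to 127. In parental cells 0 of 5 to 16 reads were methylated at each of them. In line 1 the mean was 5.58%, and in line 2 it was 0.226%. The level of line 1 came from 1 methylated read at each of 21 of the 26 CpGs, many of which share fragments, and no CpG there passed the test. Whether these reads were 1 fragment was not tested. At 5 reads a count of 0 allows up to 60%, and at 16 reads up to 18.8%.

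Upstream of APOB a boundary was visible within about a fragment's length. At -2961 and -2965 the mean was 84.2% in parental cells, 81.5% in line 1 and 90.6% in line 2. At -3083 and -3101 it was 0% in parental cells, 0% in line 1 and 4.76% in line 2. The pair of high CpGs and the pair of low CpGs kept their order in all 3 libraries.

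SERPINA1 encodes alpha-1 antitrypsin, the plasma inhibitor of neutrophil elastase, and is known to start at an upstream promoter and at a downstream one used in hepatocytes. The stated start site lay at the upstream one. There the 8 CpGs from -195 to 150 averaged 54.1% in parental cells, 53.9% in line 1 and 51.9% in line 2, with single CpGs from 0% to 97.5%. The CpG at 116 was unmethylated in all libraries, with 0 of 32, 0 of 13 and 0 of 38 reads. At 150, 25 of 31, 16 of 17 and 39 of 40 reads were methylated.

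Around the downstream RefSeq start of SERPINA1 the level was low. The 8 compared CpGs from 1827 to 2133 averaged 1.55% in parental cells, 6.21% in line 1 and 0% in line 2. In line 1 the methylated reads were again 1 per CpG, at 5 neighboring CpGs. Between the starts, 5 CpGs from 653 to 898 averaged 93.9%, 94.6% and 97.4%. SERPINA1 thus had an intermediate, a high and a low stretch in that order along the gene, in each library. A further low stretch, 8 CpGs from -4440 to -4061, averaged 4.20%, 2.98% and 4.31%. No SERPINA1 CpG was called, and the smallest adjusted p was 0.197 (Fisher's exact test), at -4022 in line 1, with 11 of 15, 2 of 10 and 13 of 19 methylated reads.

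CYP2E1 encodes the cytochrome P450 that oxidizes ethanol and other small molecules. It had the most CpGs, 140, and levels that alternated over short distances. Its means within 5 kb were 42.8% in parental cells, 36.4% in line 1 and 39.5% in line 2, and within 1 kb they were 38.3%, 35.0% and 38.5%. The libraries were less alike over these CpGs. Over its 140 CpGs Pearson's r was 0.743 between line 1 and parental and 0.840 between line 2 and parental. Between the 2 lines it was 0.860. Over all 379 member CpGs, which include these 140 and share libraries and fragments, the values were 0.908, 0.946 and 0.944. The median absolute difference per CpG from parental was 12.6 points for line 1 and 8.33 points for line 2, against 5.56 and 3.81 over all members. Between the lines it was 9.80 points, against 4.74 over all members, so the lines also differed from each other near CYP2E1.

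The CYP2E1 promoter itself was low. The 5 CpGs from -299 to -82 averaged 3.10%, 0.476% and 4.49%. At -17, the last CpG of the printed promoter, 10 of 27, 8 of 23 and 13 of 30 reads were methylated, higher than its neighbors in every library. The nearest CpG to the start, at 4, had 4 of 23, 0 of 22 and 2 of 25 (Fisher's exact test, adjusted p = 0.717 for line 1 and 1 for line 2). Over the 5 CpGs from 4 to 73 the mean was 11.3% in parental cells, 0% in line 1 and 7.43% in line 2.

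Far upstream lay the only CpGs called lower in both lines. At -3456 (chr10:135337411) the level was 95.4% in parental cells (83 of 87 reads), 43.3% in line 1 (26 of 60) and 54.8% in line 2 (46 of 84). The level fell by 52.1 points in line 1 and fell by 40.6 points in line 2 (Fisher's exact test, adjusted p = 2.94e-10 and 5.37e-07). At -3453 the level was 96.6% (85 of 88), 36.7% (22 of 60) and 58.8% (50 of 85), and Fisher's exact test gave adjusted p = 2.10e-13 and 1.16e-06. At -3438 it was 41.6%, 3.51% and 21.6%, and line 1 passed the exact test (adjusted p = 8.59e-06) while line 2 did not (adjusted p = 0.250). The exact intervals of both lines lay below that of parental cells at the first pair. The difference between the lines did not pass at any of the 3 (adjusted p from 0.135 to 1). The 3 CpGs share fragments, so they stand for 1 place. Next to them, at -3509, the level was 92.6%, 82.5% and 91.4%.

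**Figure D4:**
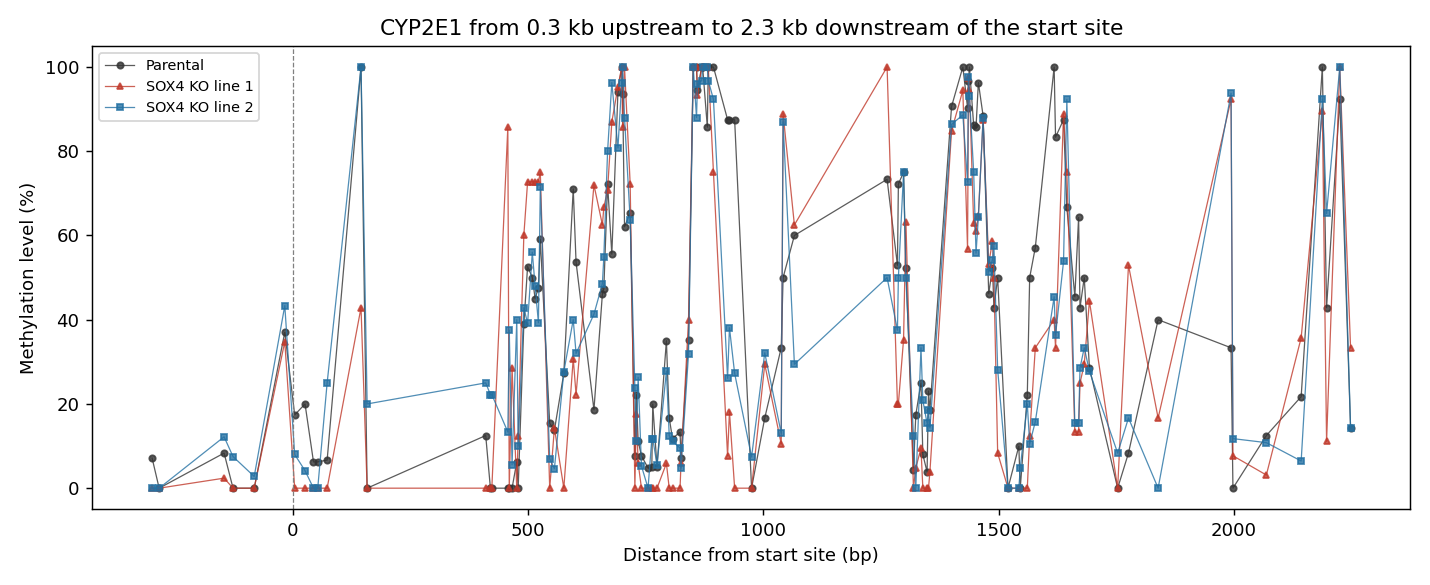
Methylation level (%) at the compared CpGs of CYP2E1 against the distance from the start site (bp, from -299 to 2248) in the 3 libraries, joined by lines in order of position. All libraries are low from -299 to -82, stand between 34.8% and 43.3% at -17, are at most 35.0% from 727 to 825 and above 80% from 851 to 883, and at 924 to 939 the parental library stays at 87.5% while both knockout lines are lower.

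Downstream of the CYP2E1 start the 3 libraries shared a pattern of sharp steps. The 13 CpGs from 727 to 825 averaged 12.9%, 2.71% and 12.4%. The next 7, from 851 to 883, averaged 97.2%, 99.0% and 96.8%. The step from low to high thus fell between 825 and 851 in each library. At 924, 928 and 939 the libraries parted, with means of 87.5%, 8.62% and 30.5%. Parental depth was only 8 reads there. Line 1 passed at 924 (Fisher's exact test, adjusted p = 0.0146) and at 939 (adjusted p = 0.00285), and line 2 passed at none.

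A second low and high pair followed. The 7 CpGs from 1319 to 1354 averaged 14.3%, 2.59% and 16.4%. The 9 CpGs from 1400 to 1467 averaged 92.7% in parental cells, 78.2% in line 1 and 80.2% in line 2, and 8 of the 9 were lower in both lines, though none was called.

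Calls near CYP2E1 went in both directions. In line 1, 4 of its CpGs were higher and 7 lower. At 457 (chr10:135341324) 0 of 15 parental reads were methylated, which allows up to 20%, against 6 of 7 in line 1 and 2 of 15 in line 2 (Fisher's exact test, adjusted p = 0.00367 for line 1). This is the CpG that crossed from below 20% to above 80%, and it rests on 7 reads in line 1. At 640 the level was 18.6%, 72.0% and 41.3% (exact test, adjusted p = 0.00106 for line 1 and 0.520 for line 2). At 596 it was 71.1%, 30.8% and 40.0% (exact test, adjusted p = 0.0447 for line 1 and 0.231 for line 2). Neighboring CpGs of 1 region thus moved in opposite directions in the same library.

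The other CYP2E1 calls of line 1 were at -3527 (88.0%, 57.5% and 85.7%), at -1851 (46.7%, 92.9% and 53.6%) and at 705 (62.1%, 100% and 88.0%), in the order parental, line 1, line 2. The single higher call of line 2 was at 678, with 20 of 36, 20 of 23 and 26 of 27 methylated reads (Fisher's exact test, adjusted p = 0.0447). The single difference called between the lines was at 2197, with 6 of 14, 2 of 18 and 15 of 23 (exact test, adjusted p = 0.0451). At all 16 member CpGs called in line 1, line 2 lay between parental and line 1. These CpGs were picked by their difference in line 1, so this is a description of them only.

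CYP3A4 encodes the P450 that metabolizes the widest range of drugs in adult liver. Its 9 compared CpGs were highly methylated in all libraries, with means of 93.7%, 92.5% and 89.7%. The only CpG within 1 kb, at -275, had 41 of 44, 32 of 33 and 47 of 49 methylated reads. Its 250-base RefSeq promoter holds no CpG, so the promoter itself could not be read by this assay. The lowest values in the lines were at -1344, with 13 of 13, 4 of 7 and 4 of 7 methylated reads, which passed in neither (Fisher's exact test, adjusted p = 0.320 and 0.598).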

How the data were processed

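Genomic DNA of 3 Hep3B libraries (1 parental, 2 SOX4 knockout lines) was sheared, captured with the TruSeq Methyl Capture EPIC probes, converted with bisulfite and sequenced. For each CpG cytosine on each strand the deposited files hold counts of total, context and methylated reads, with no normalization, and a methylation level that the authors gave as a fraction of context reads. The build is GRCh37/hg19 per the submitters' processing notes. The aligner, caller, filters and handling of PCR duplicates were not given in the sources used here, so intervals and limits of 0 counts cover counting error only.

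Strands were summed per CpG (about 87.0% of parental context reads came from the complementary strand), placed at the forward C, and CpGs with at least 5 context reads in all 3 libraries were kept. Levels are methylated over context reads, and gene levels are means over CpGs. Library pairs were compared by 2-sided Fisher's exact test, computed with numba 0.67.0 in Python 3.11.15, with Benjamini-Hochberg adjustment over all compared CpGs. The code was checked on simulated data, where its p-values were compared with those of scipy 1.17.1. Nothing in the labels says that the knockout lines were separate cultures beyond their numbers. Start sites were given with the choice of genes, and the members and lists were chosen with earlier results of these data known. For each gene the text gives the nearest CpG, up to 5 within 500 bp, and the CpG with the smallest adjusted p in line 1 or those called in both lines. Other CpGs and stretches were picked after their values were seen. Other hepatocyte genes were not analysed here, since no GRCh37 annotation was used. Alternatives were read minimums of 10, 20 and 1, 1 strand, 2 kb, other thresholds, thinning, pooled reads and leaving out each line.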

Additional observations from a re-analysis of the deposited data

How the results depend on the processing

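With 1 parental library, all values compare libraries, and depth limits single CpGs to differences that 5 to 102 reads can show. Of 220 alternative values over 26 results, 155 stayed within the spread of the lines or 1.5 times the count and 65 moved further. Of the 136 that are differences of means, 113 kept their sign. All the main differences were under 10 points (the largest was 9.03, for ALB), so none past that mark was there to change sign. Among those that changed sign, SERPINA1 within 1 kb went from 0.0322 points to -11.4 points at a minimum of 20 reads. Higher calls in line 1 (9) became 5 within 2 kb, 2 at 50 points, 5 at an adjusted p under 0.01, 4 after thinning and, chosen after seeing the data, 5 without CYP2E1. Lower calls in line 1 (7) became 3, 4, 4, 4 and 0 in the same order. The single higher call in line 2 became 0 at a minimum of 1 read, on the complementary strand only, at 50 points, at an adjusted p under 0.01, after thinning and without CYP2E1. Lower calls in line 2 (2), which are also those in both lines, became 0 within 2 kb, at 50 points and without CYP2E1. The single lower call of line 1 against line 2 became 0 on the complementary strand only, within 2 kb, at an adjusted p under 0.01, after thinning and without CYP2E1. Without either line, calls in both lines are calls in the other, from 1 to 9 higher and from 2 to 7 lower. The mean difference over all CpGs (-1.56 points) was -0.914 at a minimum of 10 reads, -0.757 at 20 reads and 0.403 without CYP2E1, and leaving out each line gave -1.91 to -1.21. Of 17 gene differences, within 5 kb or 1 kb, 9 kept 1 sign in every alternative tried, among them ALB, AFP and CYP2E1 within 5 kb. Their size still moved. The ALB difference went from 9.03 points to 0.530 within 2 kb, and that of AFP from -5.74 to -2.71 at 20 reads. The CYP2E1 difference went from -4.91 to -7.57 with pooled reads. That of TTR kept no single sign, and went from 2.78 to 18.8 with pooled reads. The cause of the changes was not tested. No paired analysis was possible because the single parental library has no second replicate number to pair.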

Other observations

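Of the CpGs seen near the 9 genes, 60 missed the minimum of 5 reads in at least 1 library, and they extend some of the stretches described. Downstream of the APOB start, 8 CpGs from 350 to 485 had at most 1 read in parental cells and in line 1, none of them methylated, and 2 methylated of 6 to 8 reads in line 2. Near the downstream SERPINA1 start, 5 further CpGs from 1891 to 1947 had 0 methylated of 2 to 4 reads in line 1, 0 of 10 to 18 in line 2 and, in parental cells, 1 methylated read, of 10 at 1891. Near CYP2E1, 5 CpGs from 1076 to 1086 had 9 or 10 methylated of 15 or 16 reads in line 1, 3 to 8 of 14 or 15 in line 2 and 1 or 2 of 4 in parental cells. These CpGs entered no comparison.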
